A study of Mus musculus with 2 samples.

Results

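The genes described are 10 genes of antigen presentation by MHC class II that have a row in both count tables: Cd74, H2-Aa, H2-Ab1, H2-Eb1, H2-DMa, H2-DMb1, H2-DMb2, H2-Oa, H2-Ob and Ciita. They were chosen by name, not by a measured value, and are 10 of the 31053 genes listed. On the mm10 build Cd74 lies on chromosome 18, Ciita on chromosome 16, and the other 8 lie together on chromosome 17 between H2-Oa, which starts at 34092340, and H2-Eb1, which ends at 34316674. Single cells came from handpicked pancreatic islets of wild-type NOD/ShiLtJ mice, a strain that develops autoimmune diabetes, at 15 weeks of age. One library came from mice fed 16% HC with 4% gluten (the gluten library) and the other from mice fed 20% HC (the HC library); the labels do not spell out HC. Each library pools cells of 3 mice, so there is 1 library per diet. Differences between the diets could therefore not be tested, and every interval below is a 95% interval for counting error only.

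MHC class II molecules show peptides from endosomes to CD4 T cells. An alpha and a beta chain, encoded by H2-Aa and H2-Ab1, assemble around the invariant chain, the product of Cd74, which is later cut down to a short peptide in the groove. H2-DM, encoded by H2-DMa with H2-DMb1 or H2-DMb2, exchanges that peptide for antigen, and H2-O, encoded by H2-Oa and H2-Ob, holds H2-DM back. Ciita is the transactivator of these genes, active constitutively in dendritic cells and B cells and after interferon gamma in many other cells. The class II haplotype is a major genetic determinant of diabetes in NOD mice, and the strain lacks the I-E alpha chain, so that H2-Eb1 is transcribed without an I-E molecule at the cell surface.

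Class II genes carry a short promoter block at which Ciita acts through other factors, and its letters are shown because most members varied together across cell classes. Of the 10 members, 7 had an entry in the RefSeq promoter table (GRCm38.p6), each entry running from 250 bases before to 50 bases after a start site. The Y box core TGATTGG, searched on both strands, lay in the promoters of 6 of the 7 and in 2568 of all 32851 promoters (7.82%). The X2 core TGATGC lay in 4 members and in 3584 promoters (10.9%). Both cores on one strand with starts at most 30 bases apart lay in the same 4 members and in 50 promoters (0.152%). Both cores were chosen after the letters were seen. The windows are 60 bases long and written 5′ to 3′ along the gene, with matches in capitals.
H2-Eb1 (chr17:34305758-34305817, plus strand): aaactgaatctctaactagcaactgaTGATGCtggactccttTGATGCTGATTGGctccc
H2-DMb1 (chr17:34153080-34153139, plus strand): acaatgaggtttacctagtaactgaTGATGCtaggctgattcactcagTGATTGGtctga
H2-DMb2 (chr17:34145109-34145168, plus strand): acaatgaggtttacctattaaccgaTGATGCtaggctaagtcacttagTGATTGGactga
H2-Ob (chr17:34238798-34238857, plus strand): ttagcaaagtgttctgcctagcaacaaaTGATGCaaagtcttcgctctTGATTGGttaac
H2-Aa (chr17:34287862-34287921, minus strand): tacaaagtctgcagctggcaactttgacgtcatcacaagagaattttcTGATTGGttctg
H2-Oa (chr17:34092286-34092345, plus strand): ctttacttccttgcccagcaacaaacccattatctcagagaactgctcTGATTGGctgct
The windows of H2-DMb1 and H2-DMb2 are near copies of each other. H2-Aa and H2-Oa hold the Y box core without TGATGC, which says only that these letters are not in the window.

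The gluten library held 8200 barcodes and 88268070 UMIs (unique transcript molecules), the HC library 7758 barcodes and 116900677 UMIs, and 15 barcode sequences occurred in both. Cell classes were named from marker genes that include no class II gene, and each cell had to pass a gate on its own markers and on those of other lineages. The named classes held their defining genes: in UMIs per 1000000 UMIs of the class (CPM), C1qa had 10687 with gluten and 10528 with HC in macrophage-like cells, Xcr1 had 470 with gluten and 651 with HC in cDC1-like cells, and Pecam1 had 1282 with gluten and 1385 with HC in endothelial-like cells. Acinar enzyme markers were higher in the gluten library in most classes, for example at 736 CPM with gluten against 65.2 CPM with HC in endothelial-like cells, but delta-like cells had 578 CPM of them with gluten and 5095 CPM with HC. Beta-like cells fell mostly into different clusters in the libraries, one of 959 cells with gluten and 81 with HC, another of 251 cells with gluten and 1361 with HC.

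The invariant chain gene Cd74 was the most abundant member, with 51.4% of the 410952 member UMIs in the gluten library and 48.9% of the 522552 in the HC library. It was highest in macrophage-like cells, at 40786 CPM with gluten (212 cells) and 33781 CPM with HC (183 cells). Dendritic cells followed. The cDC2-like class had 30676 CPM with gluten (118 cells) and 27532 CPM with HC (90 cells), and the cDC1-like class had 24497 CPM with gluten (28 cells) and 21813 CPM with HC (37 cells). In the mature DC-like class Cd74 had 24455 CPM with gluten (30 cells) and 19119 CPM with HC (40 cells), and in B-like cells it had 19626 CPM with gluten (1028 cells) and 17744 CPM with HC (1166 cells). In this order the cDC1-like and mature DC-like classes of the gluten library were the one pair of neighbours with overlapping intervals.

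Outside the professional antigen-presenting cells, which take up antigen and show it to T cells, Cd74 was far lower. Endothelial-like cells had 2917 CPM with gluten (307 cells) and 5354 CPM with HC (132 cells). Mesenchymal-like cells had 2675 CPM with gluten (211 cells) and 4072 CPM with HC (131 cells). Endocrine cells came next: the somatostatin-producing delta-like cells had 521 CPM with gluten (560 cells) and 1026 CPM with HC (271 cells), and the glucagon-producing alpha-like cells had 311 CPM with gluten (1086 cells) and 742 CPM with HC (589 cells). The insulin-producing beta-like cells had 83.4 CPM with gluten (1337 cells) and 111 CPM with HC (1562 cells), and T-like cells had 219 CPM with gluten (1160 cells) and 121 CPM with HC (2123 cells). Acinar-like cells, which should lack the gene, had 2 UMIs with gluten (17 cells) and 3 UMIs with HC (21 cells). That is 0.118 Cd74 UMIs per acinar-like cell with gluten and 0.143 with HC. T-like cells had 0.645 per cell with gluten and 0.448 with HC, and beta-like cells had 2.42 per cell with gluten and 4.32 with HC. Counts per cell are not corrected for depth. The median depth was 4485 UMIs with gluten and 14015 with HC in acinar-like cells, and 26939 with gluten and 36428.5 with HC in beta-like cells. T-like cells had 2205.5 with gluten and 2724 with HC. Acinar-like cells held 117938 UMIs in all with gluten and 667516 with HC. Shares of cells at 1 common depth are given below. Plasma-like cells, the antibody-secreting descendants of B cells, kept Cd74 at 4397 CPM with gluten (22 cells) and 4415 CPM with HC (12 cells), but their Ciita count was 2 UMIs with gluten and 0 with HC.

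**Figure D1:**
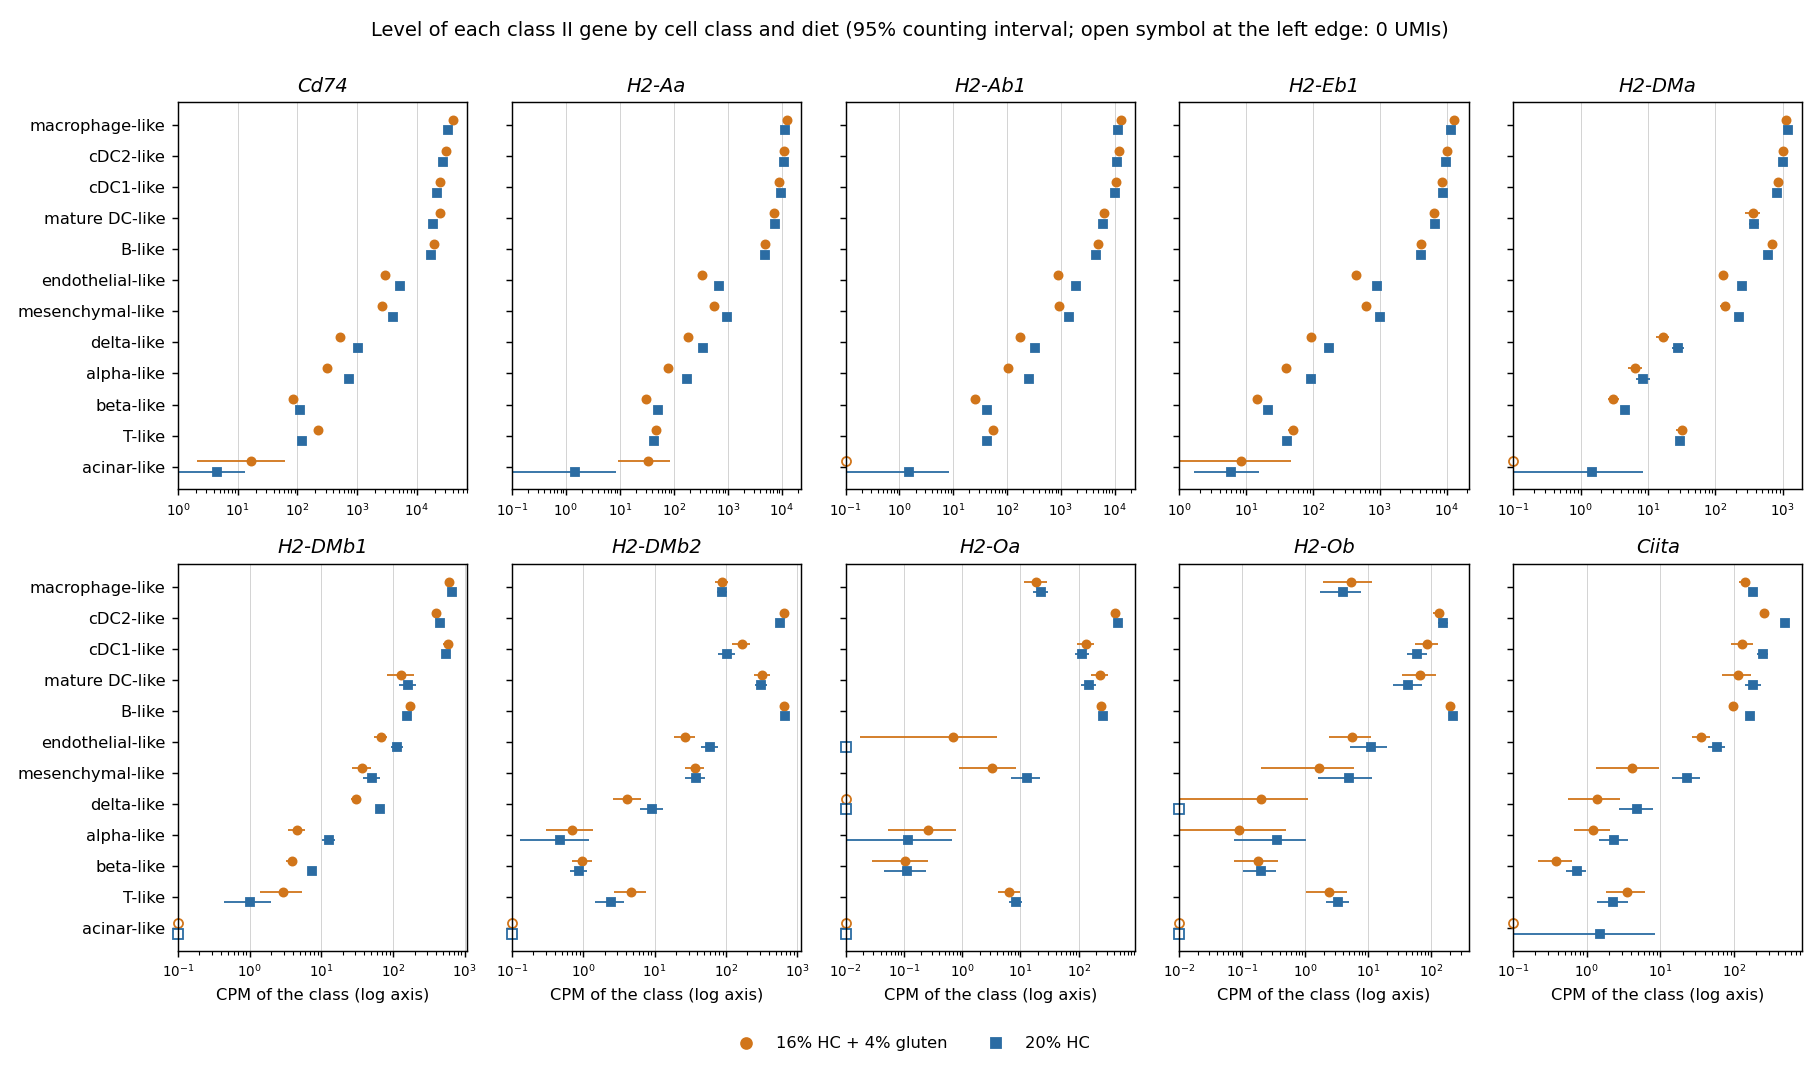
Level of each of the 10 class II genes (CPM of the class, log axis) in 12 cell classes, with the gluten library as circles and the HC library as squares, and 95% counting intervals. Macrophage-like, dendritic and B-like cells lie highest for most genes (Cd74 at 17744 CPM or more), endothelial-like and mesenchymal-like cells lie between, and endocrine, T-like and acinar-like cells lie lowest; H2-Oa, H2-Ob and H2-DMb2 depart from that order.

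The chain genes followed nearly the same order as Cd74. In macrophage-like cells H2-Ab1, the I-A beta chain, had 12924 CPM with gluten and 11698 CPM with HC, and H2-Aa, the alpha chain, had 12328 CPM with gluten and 11365 CPM with HC. In B-like cells H2-Ab1 had 4878 CPM with gluten and 4530 CPM with HC, and H2-Aa had 4950 CPM with gluten and 4892 CPM with HC. H2-Eb1, the beta chain without a partner in this strain, was transcribed alongside them, at 13075 CPM with gluten and 11562 CPM with HC in macrophage-like cells and at 4161 CPM with gluten and 4144 CPM with HC in B-like cells. Beta-like cells were at the low end, with 25.8 CPM of H2-Ab1 with gluten and 43.3 CPM with HC. The neighbouring gene H2-Eb2, which is no member, had 50.3 CPM with gluten and 81.1 CPM with HC in B-like cells.

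The peptide exchange genes differed in where they were highest. H2-DMa, the alpha chain of H2-DM, had 1138 CPM with gluten and 1182 CPM with HC in macrophage-like cells and 689 CPM with gluten and 617 CPM with HC in B-like cells. Its partner H2-DMb1 was highest in macrophage-like cells, at 607 CPM with gluten and 658 CPM with HC, against 173 CPM with gluten and 157 CPM with HC in B-like cells. H2-DMb2 showed the opposite order, with 87.5 CPM with gluten and 88.1 CPM with HC in macrophage-like cells but 659 CPM with gluten and 680 CPM with HC in B-like cells. Dendritic classes came near both. H2-DMb1 had 579 CPM with gluten and 544 CPM with HC in cDC1-like cells. In cDC2-like cells H2-DMb2 had 660 CPM with gluten and 581 CPM with HC. Reads can be shared between the near-identical copies H2-DMb1 and H2-DMb2, so the split between them is uncertain. Their sum was 694 CPM with gluten and 746 CPM with HC in macrophage-like cells. In B-like cells it was similar, at 832 CPM with gluten and 837 CPM with HC.

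H2-O, the brake on H2-DM, was far higher in B-like and dendritic cells than in the other classes compared. H2-Oa had 425 CPM with gluten and 477 CPM with HC in cDC2-like cells and 237 CPM with gluten and 257 CPM with HC in B-like cells. In macrophage-like cells it had 18.4 CPM with gluten and 22.2 CPM with HC. H2-Ob had 202 CPM with gluten and 221 CPM with HC in B-like cells, and 6 UMIs with gluten and 8 UMIs with HC in macrophage-like cells. Macrophage-like cells thus held the most H2-DMb1, with cDC1-like cells close to them, and little of either H2-O gene.

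Ciita was a low-abundance transcript in every class. It was highest in cDC2-like cells, at 259 CPM with gluten and 502 CPM with HC. Macrophage-like cells had 140 CPM with gluten and 184 CPM with HC, and B-like cells had 97.2 CPM with gluten and 166 CPM with HC. Endothelial-like cells had 51 UMIs with gluten and 54 UMIs with HC, or 35.6 CPM with gluten and 58.7 CPM with HC. Elsewhere Ciita rested on few molecules: mesenchymal-like cells had 5 UMIs with gluten and 23 with HC, delta-like cells 7 with gluten and 16 with HC, alpha-like cells 14 with gluten and 20 with HC, and beta-like cells 15 with gluten and 44 with HC.

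The makeup of the class II UMIs differed between kinds of cell. Reads of NOD mice were counted on a reference with another class II haplotype, so ratios between members are compared across cells only and not read as amounts. Each H2-Ab1 UMI came with 1.01 H2-Eb1 UMIs with gluten and 0.988 with HC in macrophage-like cells and with 0.853 with gluten and 0.915 with HC in B-like cells. In endothelial-like cells that ratio was 0.497 with gluten and 0.484 with HC, in delta-like cells 0.541 with gluten and 0.520 with HC, and in alpha-like cells 0.374 with gluten and 0.367 with HC. Beta-like cells had 0.559 with gluten and 0.483 with HC. H2-Eb1 was therefore lower relative to H2-Ab1 in these 4 classes than in the 5 antigen-presenting classes, which had 0.804 or more in both libraries with no overlap of intervals. H2-Aa per H2-Ab1 was 0.378 with gluten and 0.373 with HC in endothelial-like cells, whereas the antigen-presenting classes had 0.855 or more. Endocrine classes did not share that low ratio. Delta-like cells had 932 H2-Aa and 880 H2-Ab1 UMIs with gluten, and 1162 and 1105 with HC. Beta-like cells had 1196 and 1001 with gluten, and 3038 and 2628 with HC. In alpha-like cells H2-Aa was the lower, with 904 and 1207 with gluten, and 1511 and 2135 with HC. H2-DMb2 per H2-DMb1 was 3.80 with gluten and 4.32 with HC in B-like cells, against 0.144 with gluten and 0.134 with HC in macrophage-like cells and 0.135 with gluten and 0.140 with HC in delta-like cells. H2-Oa had 1 UMI with gluten and 0 UMIs with HC in endothelial-like cells. At the B-like ratio to Cd74 the endothelial-like cells would have held 50.4 H2-Oa UMIs with gluten and 71.3 with HC. The cDC2-like ratio would give 57.9 with gluten and 85.3 with HC, but the macrophage-like ratio only 1.88 with gluten and 3.23 with HC. In delta-like cells H2-Oa was at 0 UMIs in both libraries, where the B-like ratio would give 31.7 with gluten and 49.4 with HC. There the cDC2-like ratio would give 36.4 with gluten and 59.1 with HC, and the macrophage-like ratio 1.18 with gluten and 2.24 with HC. The low H2-Oa count thus sets these cells apart from B-like and cDC2-like proportions, not from the macrophage-like one.

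**Figure D2:**
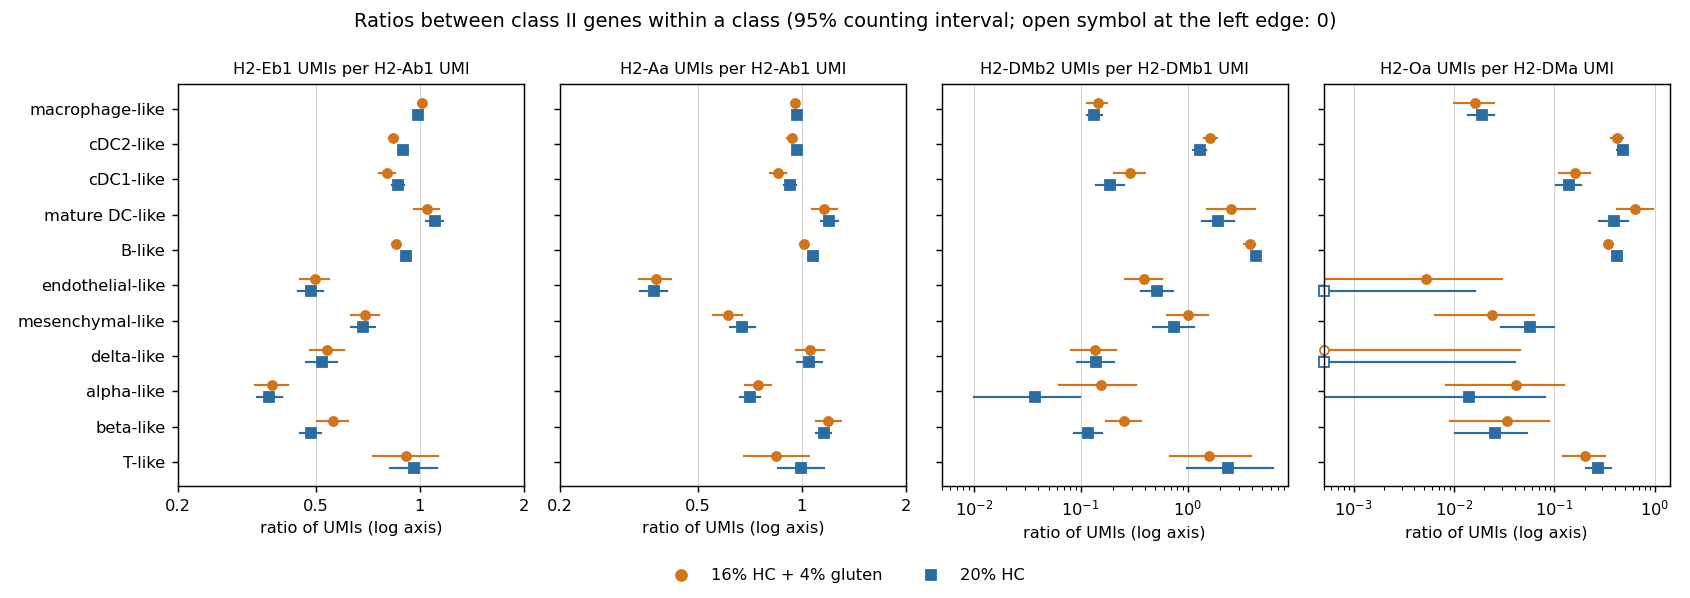
Ratios between pairs of class II genes (UMIs of one per UMI of the other, log axes) in 11 cell classes, with the gluten library as circles, the HC library as squares and 95% counting intervals. H2-Eb1 per H2-Ab1 is at most 0.559 in endothelial-like and endocrine cells and at least 0.804 in the antigen-presenting classes in both libraries, and H2-DMb2 per H2-DMb1 is 3.80 with gluten and 4.32 with HC in B-like cells.

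In the professional antigen-presenting classes the chain genes differed little between the diets, and Ciita was lower with gluten. Members count as measured in a class where the side with the higher level had 50 UMIs or more. None was 2-fold apart in macrophage-like cells (8 measured), cDC2-like cells (10), cDC1-like cells (7), mature DC-like cells (8) or B-like cells (10). Of all measured genes 4.84% were 2-fold apart in macrophage-like, 5.42% in cDC2-like, 4.64% in cDC1-like, 4.99% in mature DC-like and 4.85% in B-like cells. The median log2 ratio of gluten over HC of the members lay between -0.02 and 0.05 in these 5 classes, and that of all measured genes between -0.16 and -0.06. Cd74 was higher with gluten in each, by log2 ratios of 0.27 (0.25 to 0.29) in macrophage-like, 0.16 (0.13 to 0.18) in cDC2-like, 0.17 (0.12 to 0.21) in cDC1-like, 0.36 (0.30 to 0.41) in mature DC-like and 0.15 (0.13 to 0.16) in B-like cells. Mature DC-like cells also differed in markers: the macrophage gene C1qa had 5.61 CPM with gluten and 335 CPM with HC there, and the mature dendritic cell gene Ccr7 had 1368 CPM with gluten and 804 CPM with HC. Other dendritic classes differed too. Ccr7 had 181 CPM with gluten and 27.3 CPM with HC in cDC2-like cells. In cDC1-like cells it had 67.1 CPM with gluten (19 UMIs) and 1.94 CPM with HC (1 UMI). The cDC2 marker Cd209a had 213 CPM with gluten and 93.0 CPM with HC in cDC2-like cells. The part of these marker differences in the Cd74 and Ciita ratios was not tested.

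Ciita had ratios of the opposite sign. Its log2 ratio was -0.96 (-1.22 to -0.70) in cDC2-like cells, -0.92 (-1.49 to -0.38) in cDC1-like cells and -0.40 (-0.67 to -0.13) in macrophage-like cells. In B-like cells it was -0.77, with an interval below 0, and it was lower in both B-like clusters, by -0.81 (-1.05 to -0.58) in the larger and -0.92 (-1.92 to 0.07) in the smaller. Mature DC-like cells, with 20 Ciita UMIs with gluten and 63 with HC, had -0.70 (-1.50 to 0.05). In macrophage-like, cDC2-like and B-like cells Ciita stayed below 0 under each alternative scaling, gate and cell set run, at -0.25 to -0.61 in macrophage-like, -0.80 to -1.05 in cDC2-like and -0.61 to -0.90 in B-like cells.

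**Figure D3:**
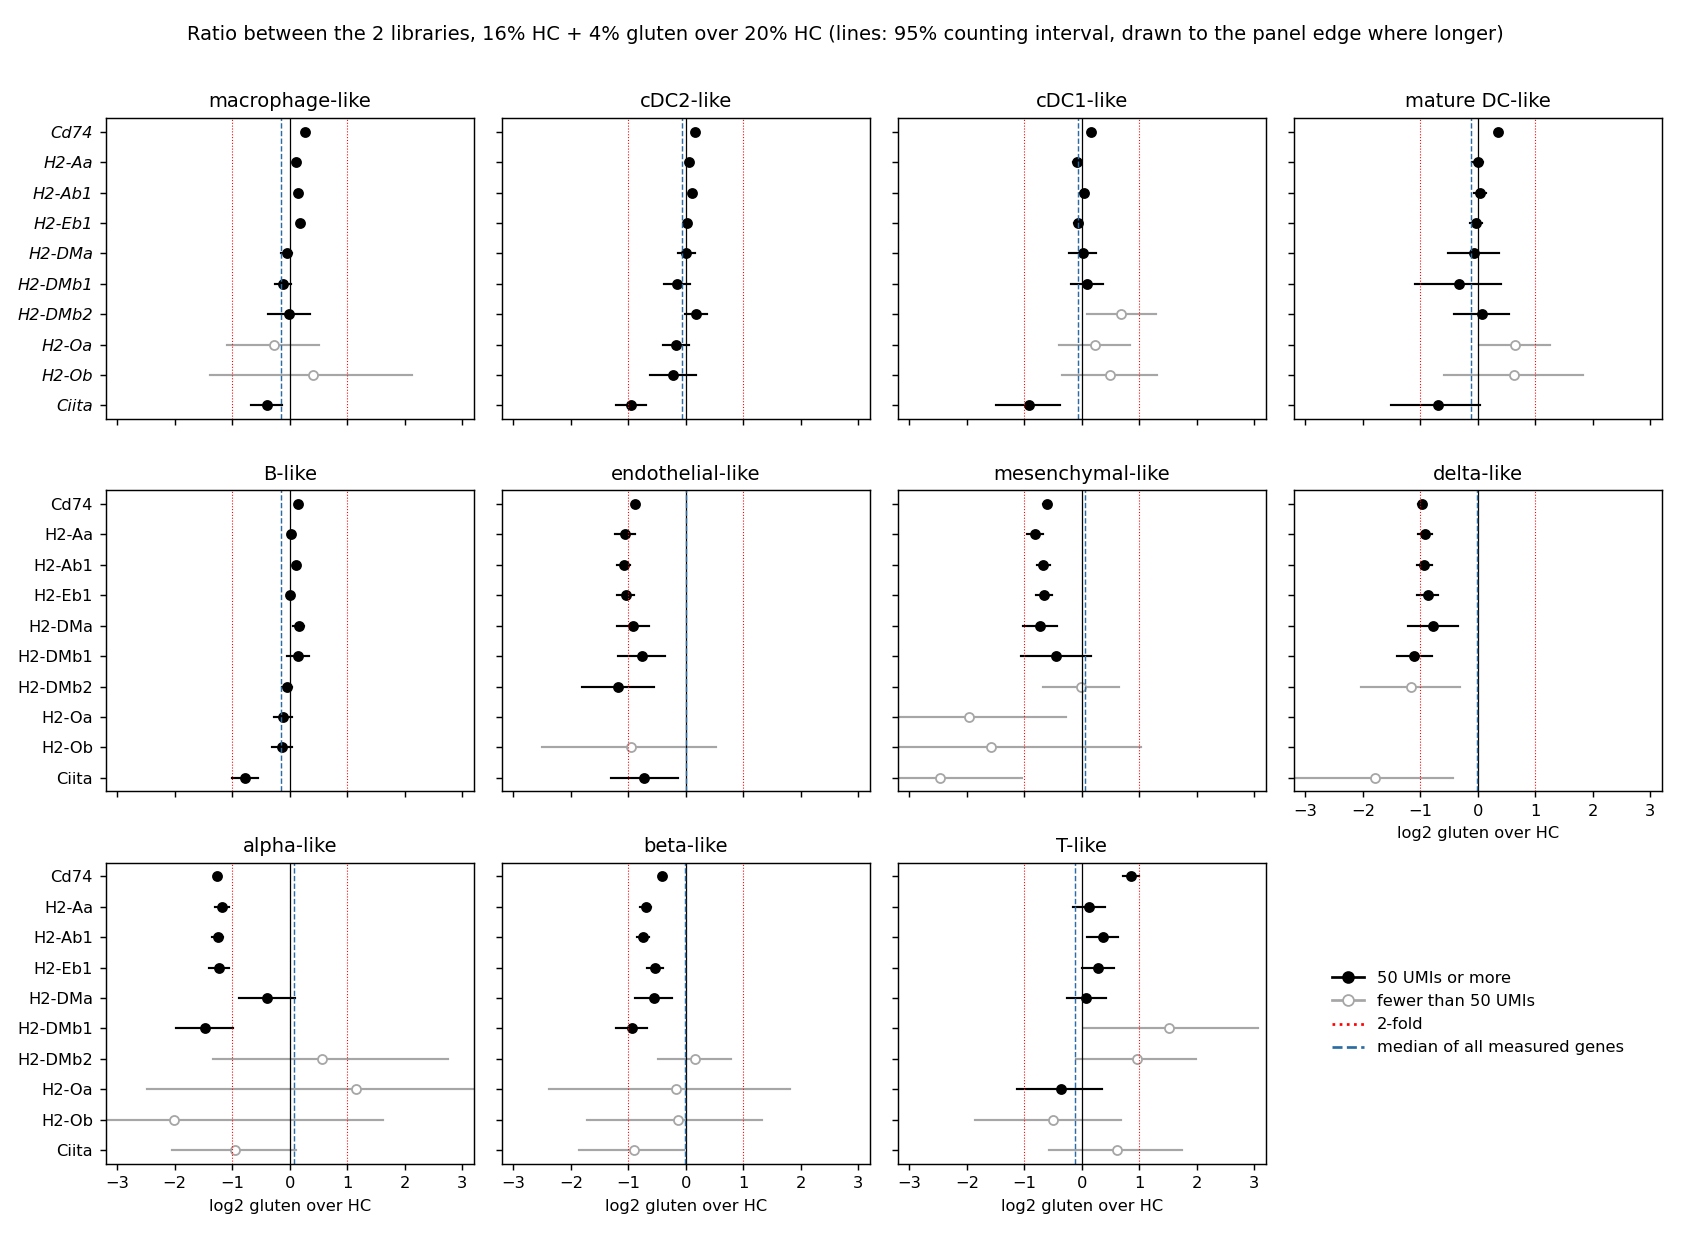
Log2 ratio of gluten over HC for each class II gene in 11 cell classes, with 95% counting intervals; filled points had at least 50 UMIs, dotted lines mark 2-fold and dashed lines the median of all measured genes of the class. The chain genes lie near 0 in macrophage-like, dendritic and B-like cells with Ciita to the left, and all measured members lie left of 0 in endothelial-like, mesenchymal-like, delta-like, alpha-like and beta-like cells.

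Endothelial-like cells, which line the islet vessels, had lower class II levels with gluten. All 8 measured members were lower and 4 of them at least 2-fold lower, where 0.544% of the 4041 measured genes were 2-fold lower. H2-Ab1 had 886 CPM with gluten and 1877 CPM with HC, a log2 ratio of -1.08 (-1.19 to -0.98). H2-Aa had 335 CPM with gluten and 700 CPM with HC, H2-Eb1 had 441 CPM with gluten and 909 CPM with HC, and H2-DMb2 had 26.5 CPM with gluten and 59.8 CPM with HC. Cd74 came close to 2-fold, with a log2 ratio of -0.88 (-0.94 to -0.82), and Ciita had -0.72 (-1.30 to -0.14). The members' median was -0.98 and that of all measured genes 0.01. Without the per-cell gate all 10 members together had a log2 ratio of -0.70 and none of the 8 was 2-fold lower, where 0.299% of measured genes were. With predicted doublets kept 7 of the 8 were, where 0.798% of measured genes were.

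The endothelial-like clusters differed from each other, a difference that was not tested. In the larger, led by Igfbp7, Plvap and Sparc, all 10 members together had 4438 CPM with gluten (274 cells) and 10938 CPM with HC (109 cells), a log2 ratio of -1.30 (-1.36 to -1.25). The smaller was led by Lrg1 and held Glycam1, the gene of an L-selectin ligand of vessels that lymphocytes enter. There the members had 7081 CPM with gluten (24 cells) and 6656 CPM with HC (20 cells), a log2 ratio of 0.09 (-0.0011 to 0.18). Markers of class II-rich cells were low in the gated endothelial-like cells. B markers had 6.29 CPM with gluten and 3.26 CPM with HC, and myeloid markers had 28.6 CPM with gluten and 12 CPM with HC. The dendritic cell genes Xcr1 and Cd209a were at 0 in both libraries. The gate had left out cells with 2 kinds and 3 UMIs of the B or of the myeloid markers. Low levels of these markers were therefore partly fixed by the choice of cells. The part of leukocyte RNA in the members was not tested. In the endothelial-like cells without a UMI of any B, plasma or myeloid marker, 260 with gluten and 114 with HC, the members together had a log2 ratio of -1.19 (-1.24 to -1.13).

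In mesenchymal-like cells all 6 measured members were lower with gluten, by a median log2 ratio of -0.67, and none was 2-fold lower, where 1.54% of all measured genes were. Without the per-cell gate 3 of 9 were, where 3.72% of measured genes were. Cd74 had a log2 ratio of -0.61 (-0.67 to -0.54) and H2-Ab1 one of -0.67 (-0.79 to -0.56). The clusters again differed, without a test. Cells led by Apoe, Dcn and C3, genes of fibroblasts, had 6070 CPM of all members with gluten and 9444 CPM with HC, whereas cells led by Mgp and the pericyte gene Rgs5 had 2308 CPM with gluten and 1994 CPM with HC. Ctss, the protease that trims the invariant chain, had 29.7 CPM with gluten and 99 CPM with HC in mesenchymal-like cells, and the leukocyte gene Cd52 had 18.1 CPM with gluten and 69.3 CPM with HC. The part of leukocyte RNA in the mesenchymal-like difference was not tested.

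Endocrine cells had low class II levels in both libraries, and lower ones with gluten. In alpha-like cells all 6 measured members were lower and 5 at least 2-fold lower, where 0.598% of the 9365 measured genes were. Cd74 had a log2 ratio of -1.26 (-1.32 to -1.20). H2-Ab1 had 106 CPM with gluten and 253 CPM with HC, a log2 ratio of -1.25 (-1.36 to -1.15). H2-DMb1 had 4.57 CPM with gluten and 12.7 CPM with HC, a log2 ratio of -1.47 (-1.98 to -0.98). H2-DMa departed from the rest, with 6.42 CPM with gluten and 8.42 CPM with HC and a log2 ratio of -0.39 (-0.88 to 0.10). The 2-fold calls did not hold in the alpha-like cells without a UMI of B, plasma or myeloid markers, 523 of 1086 with gluten and 218 of 589 with HC. Most myeloid marker UMIs of alpha-like cells were of C1qa, 740 of 811 with gluten and 515 of 581 with HC. The part of leukocyte RNA in the 2-fold calls was not tested. In the alpha-like cells without such a UMI 0 of 4 measured members was 2-fold lower, where 0.299% of measured genes were. All members together had a log2 ratio of -0.73 (-0.80 to -0.66) in them.

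In delta-like cells 6 of 6 measured members were lower, by a median log2 ratio of -0.92, and 1 was 2-fold lower, where 0.972% of all measured genes were. That member was H2-DMb1, with 31.0 CPM with gluten and 66.5 CPM with HC. Cd74 had a log2 ratio of -0.98 (-1.05 to -0.90), and without the per-cell gate 5 of the 6 members were 2-fold lower, where 1.23% of measured genes were. Delta-like cells without a UMI of the B, plasma or myeloid markers, 154 with gluten and 50 with HC, gave -0.94 (-1.07 to -0.81) for all members together. Myeloid markers had 199 CPM with gluten and 202 CPM with HC in delta-like cells. Nearly all of this was 1 gene, C1qa, at 196 CPM with gluten and 197 CPM with HC. Lyz2 had 5 UMIs with gluten and 11 with HC. Of the 10 myeloid markers, 5 with gluten and 6 with HC were at 0. B markers had 5.76 CPM with gluten and 4.82 CPM with HC.

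In beta-like cells 6 of 6 measured members were lower, by a median log2 ratio of -0.63, and none was 2-fold lower, where 0.39% of all measured genes were. Cd74 had the smallest difference, with a log2 ratio of -0.41 (-0.47 to -0.35), and H2-DMb1 the largest, with -0.94 (-1.22 to -0.67). Each of the 3 beta-like clusters gave a larger difference than the class as a whole. All members together had 160 CPM with gluten (959 cells) and 852 CPM with HC (81 cells) in the cluster that held most gluten cells. They had 58.2 CPM with gluten (251 cells) and 166 CPM with HC (1361 cells) in the cluster that held most HC cells. The remaining cluster, in which Sst transcripts led, had 402 CPM with gluten (127 cells) and 819 CPM with HC (120 cells). That cluster held 1439 of the 6332 member UMIs of beta-like cells with gluten and 3950 of the 14519 with HC.

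The share of cells with a class II transcript differed as well. With each endothelial-like cell thinned to 2498 UMIs, 52.8% with gluten (46.2 to 59.3) and 92.4% with HC (86.0 to 96.5) had a Cd74 UMI, where 74 shallower cells with gluten and 14 with HC were left out. To set classes side by side, cells were also thinned to 1000 UMIs, which left out at most 110 cells of any class in a library. Endothelial-like cells then had 42.2% with gluten and 89.0% with HC, delta-like cells 16.8% with gluten and 41.0% with HC, alpha-like cells 13.1% with gluten and 29.6% with HC, and beta-like cells 4.91% with gluten and 6.99% with HC. In B-like and cDC2-like cells the share was 100% in both libraries. In acinar-like cells 0 of 16 cells with gluten and 1 of 21 cells with HC had a Cd74 UMI. Without thinning, the endothelial-like share was 54.7% with gluten and 93.2% with HC, at median depths of 3546 UMIs per cell with gluten and 5696 with HC.

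Class II transcripts were unevenly spread over endothelial-like and endocrine cells. Over single endothelial-like cells the median level of all 10 members was 676 CPM with gluten and 9120 CPM with HC, whereas the 90th percentile was 13985 CPM with gluten and 18128 CPM with HC. The 10% of cells with the most member UMIs, a ranking not corrected for depth, held 58.3% of them with gluten and 30.4% with HC in endothelial-like cells. In alpha-like cells they held 81.9% with gluten and 61.3% with HC, and in beta-like cells 80.0% with gluten and 69.6% with HC. B-like cells were even, with 19.0% with gluten and 18.9% with HC.

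**Figure D4:**
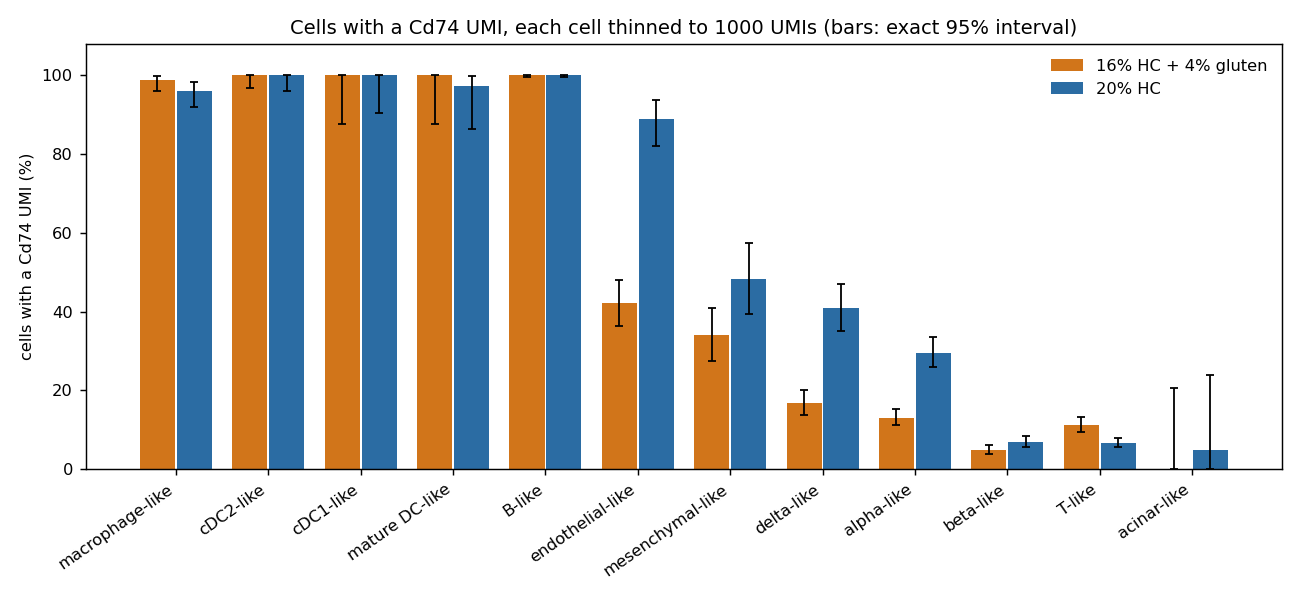
Percent of cells with at least 1 Cd74 UMI after each cell was thinned to 1000 UMIs, in 12 cell classes, gluten library left and HC library right in each pair, with exact 95% intervals. Nearly all antigen-presenting cells have a Cd74 UMI in both libraries, endothelial-like cells differ most (42.2% with gluten against 89.0% with HC), and T-like cells have the higher share with gluten (11.2% with gluten against 6.76% with HC).

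Class II levels were highest in the cells with the most interferon response transcripts. Cells of a class were ordered within each library by their share of UMIs from 20 interferon-induced genes, none of them a member, and cut into 3 groups of equal size. In beta-like cells all members together had 34.5, 50.4 and 402 CPM from the lowest to the highest group with gluten, and 74.8, 192 and 441 CPM with HC. Alpha-like cells had 103, 294 and 1223 CPM with gluten, and 488, 1011 and 2281 CPM with HC. In delta-like cells the values were 146, 224 and 2557 CPM with gluten, and 736, 1971 and 3447 CPM with HC. In each of these classes the ratio between the libraries was nearer to 1 in the highest group than in the lowest. Endothelial-like cells showed the same, with 701, 2696 and 9813 CPM with gluten, and 6313, 11048 and 11472 CPM with HC, where the intervals of the middle and the highest HC group overlapped. Most Ciita UMIs of endocrine cells lay in the highest group: in delta-like cells all 7 with gluten and all 16 with HC did, in alpha-like cells 12 of 14 with gluten and 17 of 20 with HC, and in beta-like cells 12 of 15 with gluten and 37 of 44 with HC. Myeloid markers of delta-like cells had 187, 219 and 191 CPM over the groups with gluten, and 177, 208 and 224 CPM with HC. The HC values were in the same order as the members. Over all delta-like cells nearly all myeloid marker UMIs were of C1qa, which had 196 CPM with gluten and 197 CPM with HC. The part of myeloid RNA in the order of the members was not tested. The median depth of the delta-like groups was 7809, 8049 and 8168 UMIs per cell with gluten and 10279, 10413 and 10645 with HC.

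**Figure D5:**
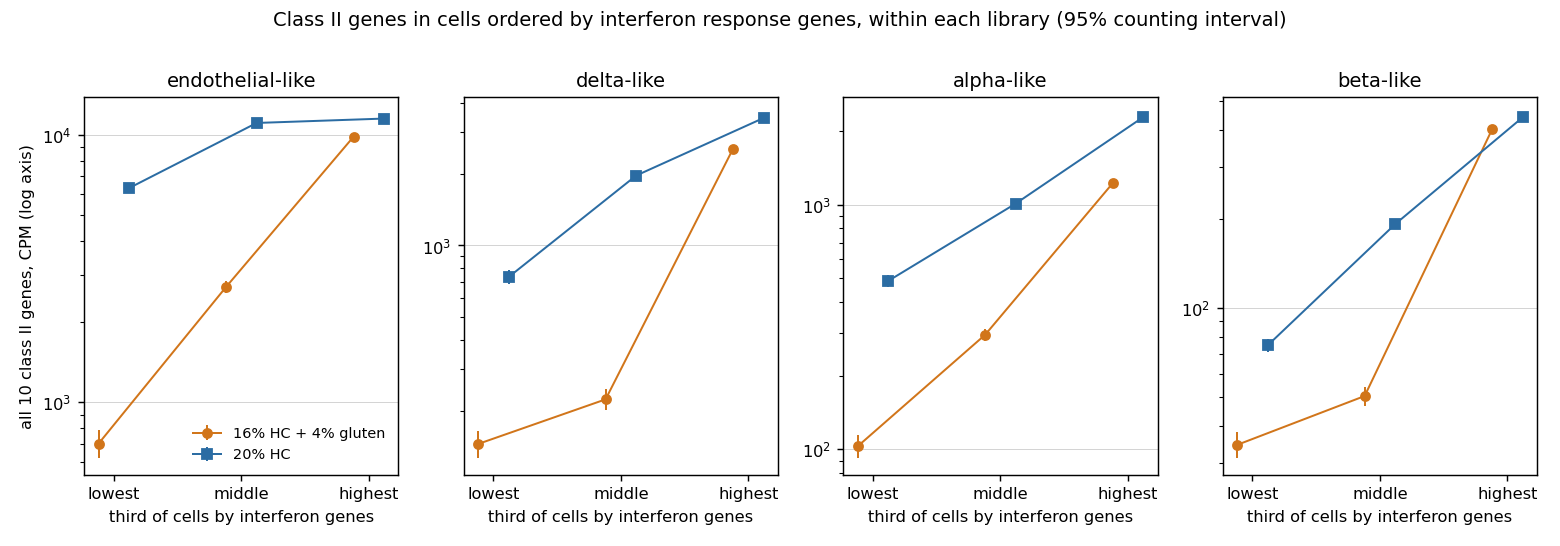
Level of all 10 class II genes together (CPM, log axis) in cells of 4 classes cut into 3 groups of equal size by their interferon response genes within each library, gluten as circles and HC as squares, with 95% counting intervals. The level is higher in each next group in both libraries, and the libraries lie closer in the highest group (402 CPM with gluten and 441 CPM with HC in beta-like cells) than in the lowest (34.5 CPM with gluten and 74.8 CPM with HC).

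Interferon response and MHC class I genes were also lower with gluten in endocrine cells. Of the 20 interferon response genes, 12 of 17 measured were 2-fold lower in alpha-like cells, 10 of 15 in delta-like cells and 4 of 20 in beta-like cells, with medians of -1.16, -1.04 and -0.75. Of all measured genes 0.598% were 2-fold lower in alpha-like, 0.972% in delta-like and 0.39% in beta-like cells. Iigp1, an interferon-induced GTPase gene, had 44.5 CPM with gluten and 157 CPM with HC in alpha-like cells. Of the MHC class I genes, 4 of 13 measured were 2-fold lower in alpha-like cells and 6 of 12 in delta-like cells, beside 0.598% and 0.972% of all measured genes. B2m, the light chain of class I, had 1620 CPM with gluten and 3917 CPM with HC in alpha-like cells. No class I gene was 2-fold apart in beta-like cells (median -0.45, 13 measured) or endothelial-like cells (median -0.40, 12 measured). Endothelial-like cells had no interferon response gene 2-fold lower among 18 measured, where 0.544% of all measured genes were. In them 1 was 2-fold higher, the chemokine gene Cxcl10, at 652 CPM with gluten and 276 CPM with HC. The share of all measured genes 2-fold higher is not given for endothelial-like cells.

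Of 16 factors that act on class II promoters or on Ciita, 9 were measured in alpha-like cells, with 1 2-fold higher, 1 2-fold lower and a median log2 ratio of 0.03. Of all measured genes 0.598% were 2-fold lower in that class. The share 2-fold higher is not given for alpha-like, beta-like or endothelial-like cells. In beta-like cells 1 of 13 measured factors was 2-fold higher and 0 were lower. Endothelial-like cells had 1 of 7 higher and 0 lower. In delta-like cells 0 of 7 were higher and 1 was lower, where 0.972% of all measured genes were 2-fold lower. Irf1, itself induced by interferon gamma and an activator of Ciita, was higher in alpha-like cells with gluten, at 173 CPM with gluten and 70.8 CPM with HC, a log2 ratio of 1.29 (1.16 to 1.42). Rfxap, a subunit of the factor that binds the X box, had 41.1 CPM with gluten and 36.2 CPM with HC. Prdm1, a repressor of Ciita, had 124 CPM with gluten and 55.5 CPM with HC in endothelial-like cells, a log2 ratio of 1.17 (0.71 to 1.64).

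Some other pathway genes were 2-fold apart in B-like and cDC2-like cells. In B-like cells 1 of 6 measured ubiquitination and sorting genes was higher and 1 lower with gluten. Of 5 costimulation genes 1 was higher and 1 lower, where 4.85% of all measured genes were 2-fold apart. In cDC2-like cells 1 of 6 promoter and Ciita factors and 1 of 5 costimulation genes were lower, where 5.42% of all measured genes were 2-fold apart. The other pathway lists had none in these 2 classes. Macrophage-like, cDC1-like and mature DC-like cells had none in any pathway list. Among endosomal proteases of macrophage-like cells Ctss had 4230 CPM with gluten and 4343 CPM with HC. The protease inhibitor Cst3 had 7743 CPM with gluten and 4879 CPM with HC there. In B-like cells March1, the ubiquitin ligase that sends class II molecules to lysosomes, had 40.9 CPM with gluten and 84.2 CPM with HC, a log2 ratio of -1.04 (-1.39 to -0.70). Cd63, a tetraspanin of class II compartments, had 37.9 CPM with gluten and 11.3 CPM with HC, a log2 ratio of 1.74 (1.18 to 2.32). Of the costimulation genes in B-like cells, Cd274 (PD-L1) was 2-fold higher, at 66.7 CPM with gluten and 26.7 CPM with HC, and Pdcd1lg2 (PD-L2) 2-fold lower, at 6.88 CPM with gluten and 16.3 CPM with HC. Cd86 had 132 CPM with gluten and 114 CPM with HC. In cDC2-like cells Irf8 had 50.1 CPM with gluten and 111 CPM with HC, and the costimulation gene Icosl had 37.9 CPM with gluten and 77.9 CPM with HC.

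Mouse T cells are not generally known to transcribe class II genes, and T-like cells had low levels. Cd74 was higher with gluten, with 748 UMIs with gluten and 951 UMIs with HC and a log2 ratio of 0.85 (0.71 to 0.99). Few cells carried it: 60.9% of T-like cells with gluten and 60.4% with HC had no member UMI, and the 1% with the highest levels held 51.0% of the members' UMIs with gluten and 48.6% with HC. Over the 5 T-like clusters the Cd74 log2 ratio ran from -0.12 (-0.42 to 0.17) to 1.73 (1.34 to 2.12). None of the 6 measured members was 2-fold apart, where 4.14% of all measured genes were. The members' median was 0.21 and that of all measured genes -0.11. H2-Ab1 had 54.8 CPM with gluten and 42.6 CPM with HC, and H2-DMa had 31.9 CPM with gluten and 30.2 CPM with HC. In the T-like cells without a UMI of B, plasma or myeloid markers, 991 with gluten and 1767 with HC, Cd74 had 197 CPM with gluten and 76.6 CPM with HC. That is a log2 ratio of 1.37 (1.18 to 1.55), past 2-fold. Without the per-cell gate all members together had a log2 ratio of 1.22, against 0.52 with it. In the gated T-like cells B markers had 14.4 CPM with gluten and 13.9 CPM with HC, and acinar markers had 824 CPM with gluten and 277 CPM with HC; the part of RNA from other cells was not tested.

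Some members of T-like cells were out of the B-like proportion to Cd74 and others near it. For H2-DMa, 109 UMIs with gluten and 237 with HC were found, where the B-like ratio to Cd74 would give 26.3 with gluten and 33.1 with HC. For H2-Oa, 22 UMIs with gluten and 65 with HC were found, where that ratio would give 9.03 with gluten and 13.8 with HC. H2-Eb1 was nearer, with 170 UMIs found and 159 at that ratio with gluten, and 321 found and 222 with HC. H2-Ob had 8 found and 7.69 at that ratio with gluten, and 26 found and 11.8 with HC. H2-DMb2 was below it, with 16 found and 25.1 with gluten, and 19 found and 36.4 with HC. At the cDC2-like ratio H2-DMb2 would have 16.1 with gluten and 20.1 with HC, and H2-Eb1 244 with gluten and 342 with HC. The macrophage-like ratio would give H2-Eb1 240 with gluten and 325 with HC, but H2-DMb2 1.60 with gluten and 2.48 with HC. For H2-DMa the cDC2-like ratio would give 24.5 with gluten and 34.6 with HC, and for H2-Oa 10.4 with gluten and 16.5 with HC. The source of these UMIs was not tested. By co-receptor, cells with Cd4 and without Cd8 had 415 CPM of Cd74 with gluten (232 cells) and 127 CPM with HC (600 cells). Cells with Cd8 and without Cd4 had 92.6 CPM with gluten (307 cells) and 115 CPM with HC (532 cells), and cells with a Foxp3 UMI had 134 CPM with gluten (71 cells) and 202 CPM with HC (141 cells), in both cases with overlapping intervals. In cells without B, plasma or myeloid marker UMIs the Cd8 kind had 74.5 CPM with gluten and 52.7 CPM with HC, the other direction, and the Foxp3 kind had 115 CPM with gluten and 215 CPM with HC, without overlap. Lag3, an inhibitory receptor for class II, had 181 CPM with gluten and 153 CPM with HC in T-like cells.

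Across the 10 classes with at least 30 cells in both libraries, the members other than H2-Oa and H2-Ob varied together. Likeness was measured as Pearson's r of log2(CPM + 1) with the mean of Cd74, H2-Aa, H2-Ab1 and H2-Eb1 over 20 points of class and library, among 13084 genes. The nearest genes outside the members were Lyn, Syk and Ctsh (r = 0.95 each), Unc93b1, Ctsz, 5031439G07Rik and Slc15a4 (0.94 each) and Vav2 (0.93). Ciita had r = 0.95 and H2-DMb2 0.93, whereas H2-Oa had 0.78 and H2-Ob 0.77. The points share 2 libraries, and r describes them without a test.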

How the data were processed

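For each library the authors deposited raw UMI counts per gene and cell barcode. The submitters' processing notes name Cell Ranger 4.0.0 and the mm10 build; the barcode calling and gene annotation they used are not given here. Symbols came from GENCODE vM21, which matched 30934 of 31053 identifiers.

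Cells were kept with 500 or more UMIs, 200 or more genes and no more than 20% mitochondrial UMIs, and the 6% with the highest Scrublet score in each library were removed, leaving 7122 cells with gluten and 7111 with HC. They were clustered (scanpy 1.11.5, leidenalg 0.10.2, 2000 variable genes without the members, the pathway lists and acinar genes, 30 components, 15 neighbours, resolution 1; myeloid cells again at 0.8) and named from markers. A cell then needed 2 markers of its class and was left out if another lineage showed 2 kinds and 3 UMIs of its defining markers. That gate was set after seeing the data: the one first written, on all markers of other lineages, left 22 endothelial-like cells with gluten and 6 with HC, and 91 beta-like cells with gluten and 95 with HC, and was run as an alternative. Member UMIs in unnamed clusters or outside the gate, 30.2% of those in kept cells with gluten and 23.4% with HC, entered no class.

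UMIs were summed per class and library and scaled to the summed UMIs (CPM). Levels have exact Poisson, shares Clopper-Pearson and log2 ratios conditional binomial 95% intervals, which cover counting error only; with 1 library per diet no test across samples could be run. A count of 0 was set to a floor of 3 counts in ratios. Genes with 50 or more UMIs on the side with the higher CPM were measured, and 2-fold or more was called apart. The median of all measured genes lay over 0.1 from 0 on the log2 scale in B-like (-0.16), macrophage-like (-0.14), mature DC-like (-0.12) and T-like cells (-0.11). On counts simulated for the endothelial comparison (3107 genes, 200 changed by 3-fold or 4-fold), 96% of the changed genes were called. The simulation held counting error only and no changes near 2-fold, so that share does not apply to members near 2-fold. Named are all members and, of the pathway lists, genes that were 2-fold apart or among the 3 most abundant of a list in a class. Members and lists were chosen with earlier results of these data known. Some genes of the lists are not reported here. Promoter letters are from RefSeq (GRCm38.p6). Alternatives to scaling, cell filter, gate, clusters and doublet removal were run.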

Additional observations from a re-analysis of the deposited data

Results flagged for a closer look

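The classes differed in sign between the diets, and that difference was not tested, since each diet has 1 library. For all 10 class II genes together, the log2 ratio of gluten over HC was above 0 in macrophage-like (0.20), cDC2-like (0.10), cDC1-like (0.057), mature DC-like (0.18), B-like (0.095) and T-like cells (0.52). It was below 0 in endothelial-like (-0.95), mesenchymal-like (-0.65), delta-like (-0.95), alpha-like (-1.23) and beta-like cells (-0.55).

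Clusters within a class also differed in sign, again untested. Among mesenchymal-like cells the cluster led by Mgp and Rgs5 had a log2 ratio of 0.21 and that led by Apoe and Dcn one of -0.64. Among macrophage-like cells the cluster led by Lyz2 and C1qa with Cxcl9 had 0.075, that led by Apoe and Ccl8 0.26 and a cluster of 75 cells with gluten and 49 with HC 0.18, whereas a cluster of 16 cells with gluten and 6 with HC had -0.10 and one of 60 cells with gluten and 18 with HC, with Ins1 and Ins2 among its leading genes, had -0.29. In B-like cells the larger cluster had 0.085 and the smaller, of 90 cells with gluten and 52 with HC, -0.31.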

How the results depend on the processing

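The log2 ratio of gluten over HC for all 10 members together kept its sign in macrophage-like, cDC2-like, B-like, endothelial-like, delta-like, alpha-like, beta-like and T-like cells in all 84 combinations of class and alternative. It stayed within the counting interval of the value in the report in 36 of them and moved outside it in 48. With TMM factors it was 0.27 in macrophage-like, 0.25 in cDC2-like, 0.21 in B-like, -0.89 in endothelial-like, -0.89 in delta-like and -1.29 in alpha-like cells. Scaled by the median of the log ratios it was 0.34 in macrophage-like, 0.16 in cDC2-like, 0.25 in B-like, -1.32 in alpha-like and 0.63 in T-like cells. With predicted doublets kept it was -1.17 in endothelial-like cells (7 of 8 members 2-fold lower), -1.19 in alpha-like and -0.50 in beta-like cells. Without the per-cell gate it was 0.19 in macrophage-like, 0.13 in cDC2-like, -0.70 in endothelial-like (0 of 8 members 2-fold lower), -1.11 in delta-like (5 of 6) and 1.22 in T-like cells. With the gate alone and no clusters it was 0.074 in cDC2-like, 0.025 in B-like, -1.04 in endothelial-like, -0.82 in delta-like, -1.15 in alpha-like, -0.26 in beta-like and 0.91 in T-like cells. A stricter cell filter gave 0.080 in B-like cells and no cDC2-like class. Without cells of 10 or more acinar UMIs it was -1.04 in endothelial-like, -1.15 in alpha-like and -0.47 in beta-like cells, and 2 members were 2-fold lower in delta-like cells. With each cell weighted equally it was 0.16 in macrophage-like, 0.12 in cDC2-like, -1.22 in endothelial-like, -1.01 in delta-like (2 of 6 members 2-fold lower), -1.11 in alpha-like, -0.40 in beta-like and 0.36 in T-like cells. In cells without a UMI of B, plasma or myeloid markers it was -1.19 in endothelial-like, -0.73 in alpha-like (0 of 4 members 2-fold lower), -0.41 in beta-like and 0.86 in T-like cells. With the gate as first written, run after seeing the data, it was 0.14 in macrophage-like, 0.019 in B-like, -1.02 in endothelial-like (0 of 0 members measured), -0.64 in delta-like (0 of 0), -3.18 in alpha-like (2 of 2), -1.45 in beta-like (1 of 1) and 0.26 in T-like cells. The cause of these moves was not tested.

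In mesenchymal-like cells the sum ran from -0.98 with the gate as first written to -0.59 with predicted doublets kept, and members 2-fold lower numbered 3 of 9 without the per-cell gate, 1 of 5 with the stricter cell filter and 1 of 1 with the gate as first written, against 0 of 6 in the report. Single members of these 9 classes kept within their interval in 528 of 680 combinations, and none that was 2-fold apart changed sign. The share of all genes 2-fold apart was over 1.5 times higher with a minimum of 10 or 3 UMIs in each class. The thinning to 1000 UMIs was added after seeing the data. No paired analysis was possible because each diet has 1 library, and for the same reason no replicate was left out. Ciita in endocrine cells, at 7 to 44 UMIs, and H2-Oa and H2-Ob outside B-like and dendritic cells are limited by depth.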
